A study of Gossypium hirsutum with 51 samples.

Results

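A group of 154 cDNA clones read higher in cotton ovules at -3, that is 3 days before the flower opened, than at +3, and was described over the later ages and in the fl mutant. Of 11682 clones on the array, 10677 had a value at both -3 and 0, and 226 of these reached a log2 ratio of at least 0.8 for -3 over +3. From the 226, clones were kept that lay under 0.5 at 0 relative to +3 and above -1.5 at +15 relative to +3, or had no value at +15. These conditions left out 72 clones, 70 of which were raised at 0 and 14 of which were strongly lower at +15, with 12 in both. The members were thus selected on measured values of -3, 0 and +15 against +3, and those values are given as a description. The working name of the group, high only before flowering, went against the data for many members: of 103 clones with a value at all 7 ages, 66 were highest at -3, and of the others 30 peaked at +15, 3 at +5, 3 at +10 and 1 at +20. They are therefore called here by the way they were chosen.

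Cotton fibres are single cells of the ovule's outer cell layer that bulge out at about the time of flowering, elongate, and later thicken their cellulose wall. The fl mutant is known from the cotton literature as a line whose seeds bear neither lint nor fuzz, so its ovules lack the fibre cells that wild-type ovules hold. The array's clones are listed by ID with no gene name, so no role can be given for a clone, and the labelled tissue could not be set against marker genes.

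Total RNA of whole ovules was compared on 2-colour cDNA arrays, and each value is a log2 ratio of one RNA over the other. The fl mutant of upland cotton (Gossypium hirsutum) was set against wild type at +3 and at +10 days post anthesis, and wild-type ovules of -3, 0, +5, +10, +15 and +20 days were each set against wild-type ovules of +3 days. Each of the 8 comparisons had 3 sets, a set being an array and its dye swap, and on 3 self-to-self arrays both dyes labelled wild-type RNA of +3. A set counted as 1 replicate and needed both arrays measured. The design text calls the samples biologically independent. In whole ovules, fewer cells of a type and less RNA per cell cannot be told apart.

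Several arrays bear on the values below. An array measured between 7639 and 11681 clones. The 6 arrays of -3 against +3 were deposited without normalization. In set 2 the forward array had a median over all clones of 0.52 for -3 over +3, and in set 3 the dye-swap array had -0.47. Choosing the members without set 2 gave 86 clones, of which 77 were among the 154, so counts for these 77 are set beside the main ones. Without set 3 the rule gave 230 clones, of which 148 were among the 154. After every array was centred on its clone median, it gave 159 clones, of which 137 were among the 154. The array of +5 against +3 in set 3 and that of +10 against +3 in set 2, both with forward dyes, carried the same control values, 19 of 19, and the set of each was left out, so that both comparisons rested on 2 sets. The labels do not say which RNA stands on top of a ratio; the direction used here is the likely one, judged by a control spot that read from 5.83 to 12.11 on dye swaps and from -11.7 to -7.16 on forward arrays. If all ratios run the other way, higher and lower exchange places. The clone values of fl against wild type at +3 were read with their deposited sign turned, because their dye effects correlated with those of the self-to-self arrays at -0.58 to -0.41, against -0.06 to 0.69 in the other 21 sets. The control spot did not show such a turn. In this comparison it read the usual way, from -9.20 to -8.20 on forward arrays and from 5.83 to 9.09 on dye swaps. The turn was made after values of these arrays had been seen, the sign is not settled, and values with the deposited sign are given as well. Over all clones, 0 against +3 correlated with +5 and +10 against +3 at r = -0.49 and -0.45, and -3 against +3 with the same 2 comparisons at -0.37 and -0.32. The direction was kept, because the dyes are listed for every array and earlier and later ages could oppose each other.

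At -3 the members had a median log2 ratio of 0.97 over +3, with quartiles of 0.86 and 1.19 and a range of 0.80 to 2.69, where all probes tested had a median of 0.01. The threshold passed through a dense part of the range. Clones CM030A09 and CM101E06 lay just inside it at 0.8006 and 0.8002, and CM122F08 and CM094H01 just outside at 0.7991 and 0.7977. The members' medians were 0.89, 1.23 and 0.81 in sets 1, 2 and 3, against medians over all clones of -0.04, 0.20 and -0.26 in the same sets. All 91 members measured in 3 sets were above 0 in each set, and 43 of them reached 0.8 in each. The other 63 members had 2 sets, and 58 of these lacked set 3. On the self-to-self arrays the members' median was -0.04 relative to that of all clones. For this the 3 arrays were averaged, with the sign of set 2 turned for its dyes, and the median of all clones was subtracted. As deposited, these arrays had medians over all clones of -0.153, 0.1035 and -0.2275 in sets 1, 2 and 3.

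The 4 members furthest above +3 at -3 all lay near or below the +3 level at 0. Clone CM003E03 read 2.72, 3.07 and 2.27 in the 3 sets at -3, a mean of 2.69 ± 0.40 (SD, n = 3) or 6.44-fold, and -0.18 ± 0.23 (SD, n = 3) at 0. Clone CM027H12 read 2.57, 2.94 and 2.14 at -3, a mean of 2.55 ± 0.40 (SD, n = 3), and -0.15 ± 0.11 (SD, n = 3) at 0. Clone CM114H10 averaged 2.21 ± 0.28 at -3 and 0.02 ± 0.10 at 0, and CM017C02 averaged 2.20 ± 0.21 at -3 and 0.03 ± 0.09 at 0 (SD, n = 3 each). In all 4 clones every set at -3 stood above every set at 0, but these are the values that chose them, so this is description only. At 0 the 154 members ranged from -0.57 to 0.50 with a median of 0.17, against 0.04 over all probes, and 43 of them lay below 0.

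At +15 many members again stood well above +3. Their median there was 0.73, with quartiles of 0.00 and 1.28 and a range of -1.35 to 4.24, against -0.05 over all probes. Of the 131 members with a value at +15, 61 (46.6%) lay at least 0.8 above +3, where 11.4% of all probes did, and 33 lay below 0. The set medians of the members were 0.68, 0.72 and 0.67, against -0.04, -0.05 and -0.03 over all clones. The rule removed clones at or below -1.5 at this age, so the lower end of the range was fixed by the choice, and no test is given. These ratios are also to +3, whose low reading against -3 helped to choose the members. Of the 72 clones past the -3 threshold that the other conditions left out, 25 of 69 with a value (36.2%) also lay at least 0.8 above +3. Clone CM003E03 read 1.90, 1.80 and 4.46 at +15, so its mean of 2.72 ± 1.51 (SD, n = 3) rested largely on set 3. CM027H12 read 2.29, 2.36 and 3.08, a mean of 2.58 ± 0.44 (SD, n = 3), which is within the spread of its sets at -3.

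**Figure D1:**
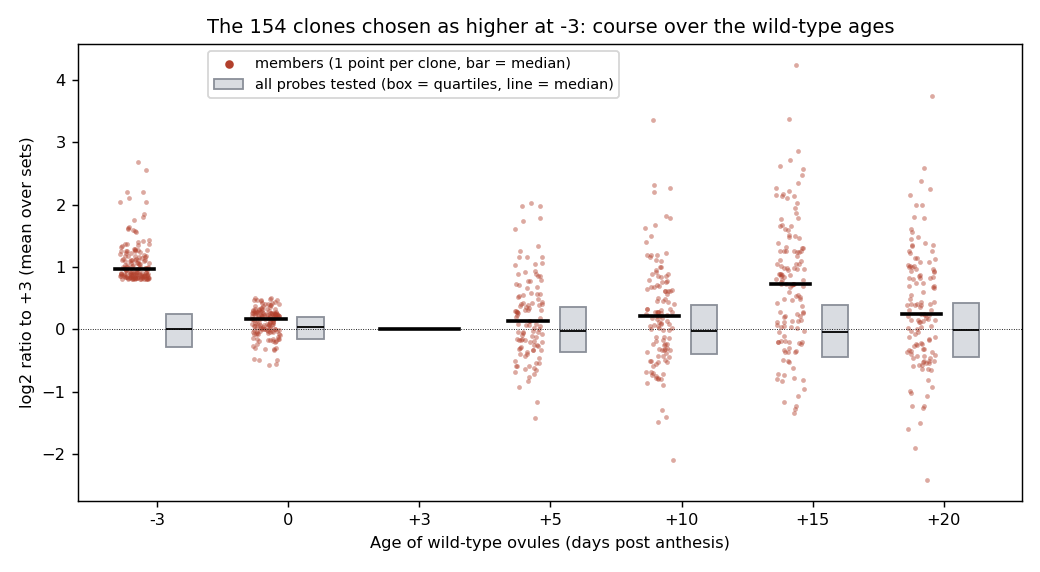
Log2 ratio to wild-type ovules of +3 for each of the 154 members (points, mean over sets) at 7 ages in days post anthesis, with the members' median as a bar and the quartiles of all probes tested as a box. The members' median is 0.97 at -3 and 0.17 on the day of flowering; it is 0.14 for +5 and 0.21 for +10, and then 0.73 for +15 and 0.25 for +20, with +3 at 0 by construction.

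Among the 103 members with all 7 ages, 27 lay at least 0.8 below their -3 value at every age from +5 on, and 76 came within 0.8 of it or passed it at some later age. In 36 of the 103 every later age stayed under 0.5 relative to +3. The median margin between -3 and the highest of +5, +10, +15 and +20 was 0.27.

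At +5, +10 and +20 the rule used no values, but each age was again compared with +3 wild-type RNA, whose low reading against -3 helped to choose the members. Whether the same RNA was hybridised is not stated in the labels, and the part of a shared +3 RNA in these counts was not tested. Differences were tested with limma over all probes, and a clone was called higher or lower at a Benjamini-Hochberg adjusted p under 0.05. The limma p rests on 1 spread per clone over all its comparisons, not on the SD printed beside it. A clone was tested where 2 or more sets were complete, and 87 members were tested in all 5 comparisons the rule did not use, while 11 were tested in none.

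At +5, 44 of 111 members tested (39.6%) were higher than at +3, against 26.8% of all 9633 probes, and 22 (19.8%) were lower, against 29.2%. The members' median was 0.14, with 0.21 and 0.06 in the 2 sets, and that of all probes was -0.03. The other 45 tested members were not called and 43 were not tested. Of the 77 clones also chosen without set 2 of -3, 53 were tested, and 23 (43.4%) were higher and 10 (18.9%) lower. With set 1 left out of every comparison, +5 rested on set 2 alone and the members' median was 0.03, against -0.05 over all probes. Without set 2 the medians were 0.21 and -0.03.

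The 2 largest called changes in each direction at +5 are given here. Clone CM009H07 read 2.31 and 1.75, a mean of 2.03 ± 0.40 (SD, n = 2; 4.08-fold; limma adjusted p = 1.51e-09). Clone CM030H04 read 2.26 and 1.69, a mean of 1.98 ± 0.40 (SD, n = 2; adjusted p = 1.12e-08). CM030H04 and CM009H07 also read close to each other at +20, with 1.80 ± 0.10 and 1.60 ± 0.04 (SD, n = 3 each), and the table does not show whether they carry the same transcript. Clone CM015D05 was lower, at -1.61 and -1.24, a mean of -1.42 ± 0.26 (SD, n = 2; adjusted p = 2.98e-08). Clone CM108H01 was lower too, at -1.20 and -1.12, a mean of -1.16 ± 0.06 (SD, n = 2; adjusted p = 0.000162).

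At +10, 51 of 120 members tested (42.5%) were higher than at +3, against 28.8% of all 10317 probes, and 31 (25.8%) were lower, against 30.2%. The members' median was 0.21, with 0.12 and 0.23 in the 2 sets, and that of all probes was -0.02. Among the 77 clones also chosen without set 2 of -3, 26 of 58 tested (44.8%) were higher and 13 (22.4%) lower. With set 1 left out of every comparison, +10 rested on set 3 alone and the members' median was 0.24, against -0.03 over all probes. Without set 3 the medians were 0.15 and -0.01.

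Clone CM001A08 changed most at +10, reading 3.82 and 2.90, a mean of 3.36 ± 0.65 (SD, n = 2; 10.3-fold; limma adjusted p = 5.67e-11). CM009H07 followed at 2.46 and 2.18, a mean of 2.32 ± 0.20 (SD, n = 2; adjusted p = 2.3e-10). Clone CM108H01 read -1.74 and -2.46, a mean of -2.10 ± 0.51 (SD, n = 2; adjusted p = 2.59e-07), and CM097F01 read -1.32 and -1.64, a mean of -1.48 ± 0.22 (SD, n = 2; adjusted p = 1.13e-07). CM001A08 was thus close to the +3 level at 0, with 0.01 ± 0.03 (SD, n = 3), and far above it at +10, although it was chosen for a value of 0.90 ± 0.16 (SD, n = 3) at -3.

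At +20, 62 of 127 members tested (48.8%) were higher than at +3, against 33.5% of all 10491 probes, and 34 (26.8%) were lower, against 35.8%. The median was 0.25 over members and -0.01 over all probes, and the members' set medians were 0.17, 0.36 and 0.28. Of the 127 members, 29 were at least 2-fold higher and 9 at least 2-fold lower, against 7.88% and 7.30% of all probes. Of the 77 clones also chosen without set 2 of -3, 31 of 61 tested (50.8%) were higher and 13 (21.3%) lower.

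At +20 CM001A08 read 3.81, 3.83 and 3.58, a mean of 3.74 ± 0.14 (SD, n = 3; 13.4-fold; limma adjusted p = 9.94e-15). Clone CM033B02 read 2.44, 2.47 and 2.84, a mean of 2.58 ± 0.23 (SD, n = 3; adjusted p = 3.54e-10). The lowest were CM108H01, at -2.17, -2.04 and -3.04, a mean of -2.42 ± 0.54 (SD, n = 3; 5.34-fold lower; adjusted p = 6.54e-10), and CM097F01, at -1.70, -1.86 and -2.13, a mean of -1.90 ± 0.22 (SD, n = 3; adjusted p = 4.51e-11). All 3 sets of these 4 clones lay on one side of 0, which the way they were picked required. Of the clones furthest above +3 at -3, CM027H12 was higher at +20 at 1.99 ± 0.28 (SD, n = 3; adjusted p = 5.79e-07), CM017C02 at 1.44 ± 0.19 (SD, n = 3; adjusted p = 6.17e-09) and CM114H10 at 1.26 ± 0.09 (SD, n = 3; adjusted p = 1.02e-08). CM003E03 had no complete set at +20.

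**Figure D2:**
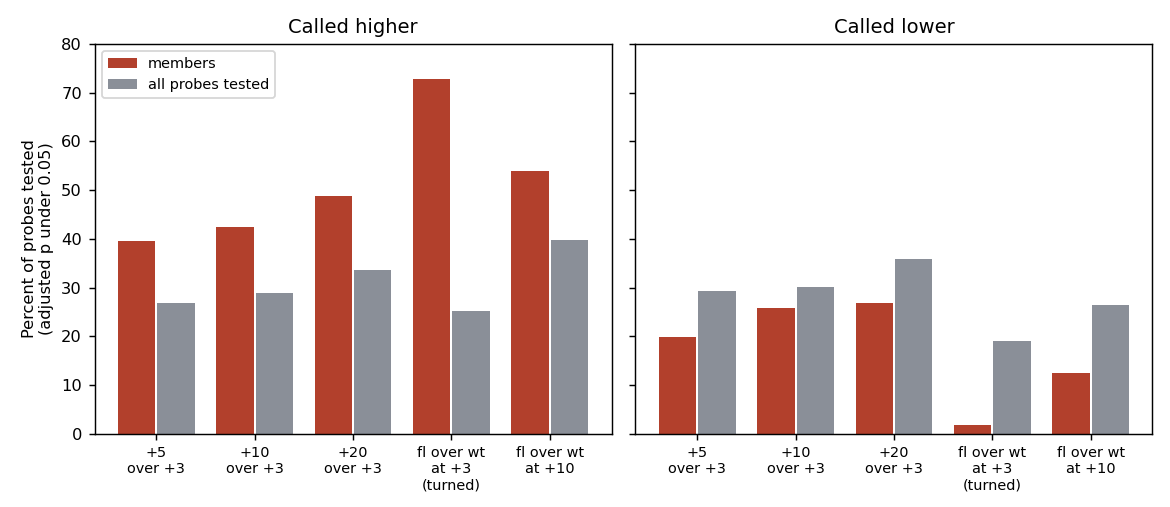
Percent of tested probes called higher (left) or lower (right) at a limma adjusted p under 0.05 in 5 comparisons, for the members (red) and for all probes tested (grey); wt is wild type, and fl at +3 has the sign turned. The members' bars are above those of all probes on the left and below them on the right; with the deposited sign at +3 the members' bars of that comparison change sides, to 2 higher and 86 lower.

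These values moved with the number in a clone's ID. That number was taken as its library plate, judged from the form of the ID, and the cut at 80 was chosen here. Members lay on 85 of 124 plates with at most 5 on a plate, and 66 (42.9%) were on plates from 80 up, where 35.8% of all clones were. At +20, members on plates from 80 up had a median of 0.13, with 18 of 48 tested called higher and 18 lower, where all clones of those plates had a median of -0.32 with 17.7% higher and 54.9% lower. On the other plates the members' median was 0.43, with 44 of 79 higher and 16 lower, where all clones had 0.14 with 41.8% higher and 25.9% lower. The members' median was above that of all clones on both groups of plates also at +5, with -0.16 against -0.28 from plate 80 up and 0.34 against 0.10 below it. At +10 it was 0.01 against -0.23 and 0.28 against 0.10 in the same order. The part of the plate in these values was not tested beyond this split.

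The later ages were also set against each other, +10 against +5 and +20 against +10. From the 2 comparisons with +3, whose +3 RNA cancels if it was shared, 8 of 107 members (7.48%) were higher and 3 (2.80%) lower at +10 than at +5, against 4.10% and 2.00% of all 9439 probes. The members' median difference was -0.01, -0.07 and -0.02 with set 1, 2 or 3 left out of every comparison. Over all probes it was -0.02, -0.02 and -0.01. At least 1 of the 2 comparisons then rested on 1 set, so calls from these fits are not given. CM001A08 was among the 8 members higher at +10 than at +5, by 2.10 ± 0.22 (SE; limma adjusted p = 1.03e-05). At +20 over +10, 17 of 114 members (14.9%) were higher and 10 (8.77%) lower, against 10.5% and 12.2% of all 10032 probes. Of the 77 clones also chosen without set 2 of -3, 7 of 55 tested (12.7%) were higher and 5 (9.09%) lower, with a median of -0.02. With set 1 left out of every comparison, +10 against +3 rested on 1 set. The median difference was then 0.08 over members and 0.0 over all probes. Without set 3, which also left 1 set there, it was 0.07 and -0.01. CM015D05 was higher at +20 than at +10 by 1.56 ± 0.16 (SE; adjusted p = 6.48e-07).

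The course from +5 to +20 varied among members. Over the 104 members tested at +5, +10 and +20, the SD of the 3 means ran from 0.046 to 1.34 with a median of 0.29. It was largest for CM001A08 at 1.34, CM027H06 at 0.994 and CM015D05 at 0.906. CM027H06 averaged 1.07 ± 0.46 at +5, 0.17 ± 0.33 at +10 and 2.16 ± 0.20 at +20 (SD, n = 2 each). CM015D05 averaged -1.42 at +5, -1.40 at +10, 1.59 at +15 and 0.16 at +20, so among these ages it was below +3 at +5 and +10 and above it at +15. It was smallest for CM003D09 at 0.046, CM109H03 at 0.049 and CM007F05 at 0.063. CM003D09 averaged 0.77, 0.76 and 0.84 at +5, +10 and +20, with 2.10 ± 0.44 at -3 and 2.34 ± 0.48 at +15 (SD, n = 3 each). CM109H03 averaged -0.60, -0.69 and -0.63 at the same 3 ages and -0.36 at +15. CM007F05 averaged -0.39, -0.44 and -0.52, of which only the last passed the limma test (adjusted p = 0.00766).

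**Figure D3:**
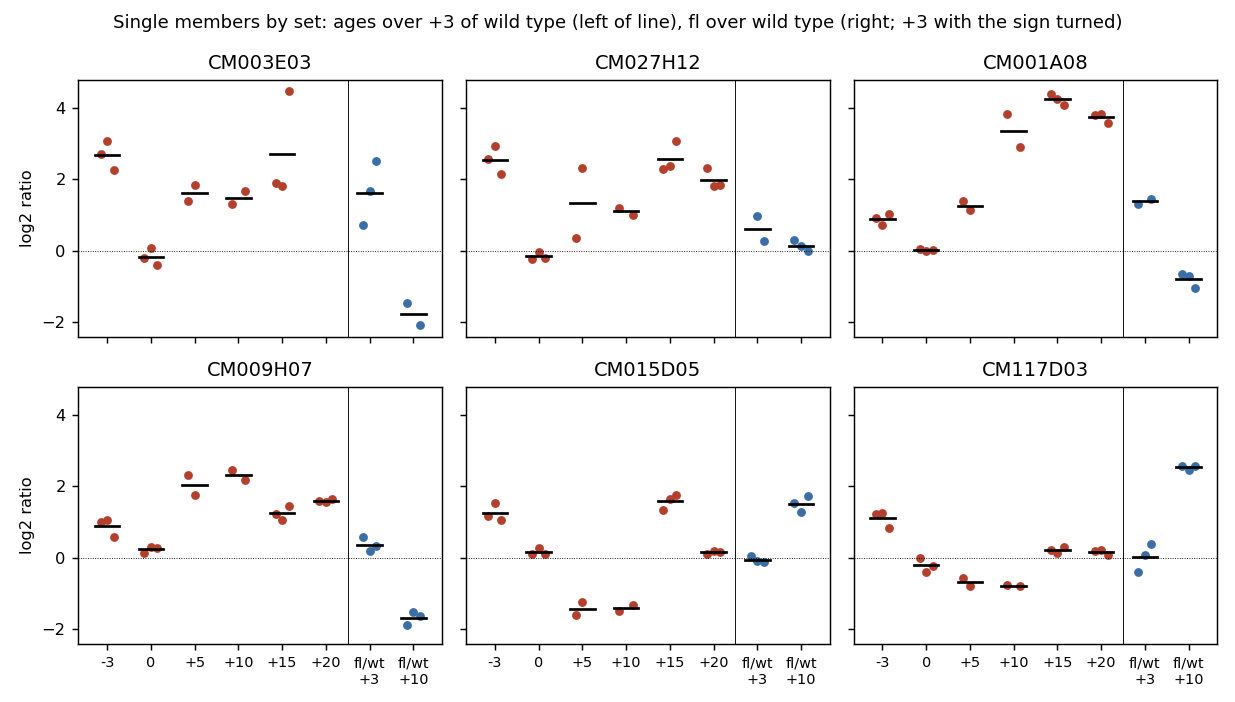
Log2 ratios of 6 named members in each set (points) with the mean where 2 or more sets were complete (bars): 6 wild-type ages over +3 left of the line, fl over wild type at +3 (sign turned) and +10 right of it. CM001A08 stands at 0.90 at -3, 4.24 at +15 and 3.74 at +20, CM015D05 is below 0 only at +5 and +10 among the ages, and CM117D03 stands at 2.54 in fl over wild type at +10.

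In the fl mutant at +10, 61 of 113 members tested (54.0%) were higher than in wild type, against 39.8% of all 9210 probes, and 14 (12.4%) were lower, against 26.4%. This comparison names no RNA in common with the values that chose the members. The members' median was 0.34, with 0.31, 0.32 and 0.33 in the 3 sets, against 0.14 over all probes and 0.12, 0.14 and 0.14 over all clones in the same sets. Of the 113 members, 16 were at least 2-fold higher and 5 at least 2-fold lower, against 3.95% and 9.53% of all probes. Another 41 members were not tested. After each array was centred on the median of its clones, the members' median was 0.21 and that of all probes 0.01. It gave 51 members higher and 24 lower, against 30.4% and 33.8% of all probes. Differences at +10 smaller than this shift of all probes have no settled direction. Of the 77 clones also chosen without set 2 of -3, 29 of 60 tested (48.3%) were higher and 7 (11.7%) lower.

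The plates also moved with the genotype difference at +10. On plates from 80 up, 27 of 42 members (64.3%) were higher in fl and 2 lower, where 57.7% of all clones there were higher and 10.4% lower. On the other plates 34 of 71 members (47.9%) were higher and 12 (16.9%) lower, where 30.9% of all clones were higher and 34.3% lower. The members' medians were 0.48 and 0.26 on these 2 groups of plates, against 0.33 and 0.01 over all clones.

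Clone CM117D03 differed most in the direction of fl at +10, reading 2.58, 2.45 and 2.58, a mean of 2.54 ± 0.07 (SD, n = 3; 5.80-fold; limma adjusted p = 7.47e-14). In wild type its +10 level was below that of +3, with -0.79 ± 0.02 (SD, n = 2; adjusted p = 7.73e-05). Clone CM020F05 read 1.65 and 2.72, a mean of 2.19 ± 0.75 (SD, n = 2; adjusted p = 0.00284), and was tested in no other comparison outside the rule. Clone CM003E03 was lower in fl at +10, at -1.46 and -2.08, a mean of -1.77 ± 0.44 (SD, n = 2; adjusted p = 0.0025). CM009H07 was lower as well, at -1.87, -1.52 and -1.63, a mean of -1.67 ± 0.18 (SD, n = 3; 3.19-fold lower; adjusted p = 6.28e-11). CM009H07 was also one of the 2 members furthest above +3 at +10 in wild type, whereas CM015D05, which was below +3 at that age, was higher in fl at 1.52 ± 0.21 (SD, n = 3; adjusted p = 6.67e-11). Both comparisons contain +10 wild-type RNA, so their values are not independent.

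At +3, with the sign turned, 86 of 118 members tested (72.9%) were higher in fl than in wild type, against 25.2% of all 10106 probes, and 2 (1.69%) were lower, against 19.1%. With the deposited sign, 2 were higher and 86 lower, against 19.0% and 25.3% of all probes. The members' median was 0.50, with quartiles of 0.33 and 0.65 and set medians of 0.39, 0.47 and 0.62, where all probes had a median of 0.07. These medians are -0.50 and -0.07 with the deposited sign. With the sign turned, 10 of the 118 members were at least 2-fold higher and 0 at least 2-fold lower, whatever the limma p, since the lowest mean was -0.69, against 0.891% and 4.08% of all probes. The deposited sign gives 0 at least 2-fold higher and 10 lower, against 4.05% and 0.920%. The wild-type RNA here is that of +3, the age at which the members were chosen to be low, and the part of that choice in the count was not tested. Of the 77 clones also chosen without set 2 of -3, 45 of 55 tested (81.8%) were higher and 1 (1.82%) lower. On plates from 80 up 30 of 45 members were higher and 1 lower, where 23.5% of all clones there were higher and 13.5% lower. On the other plates 56 of 73 were higher and 1 lower, where 26.2% of all clones were higher and 22.0% lower. Higher and lower exchange places in the counts of the 77 clones and of both groups of plates under the deposited sign, so that 1 of 55, 1 of 45 and 1 of 73 are higher.

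Clone CM003E03 read 0.72, 1.67 and 2.50 in fl over wild type at +3, a mean of 1.63 ± 0.89 (SD, n = 3; limma adjusted p = 0.00188). CM001A08 read 1.32 and 1.44, a mean of 1.38 ± 0.08 (SD, n = 2; adjusted p = 5.66e-07). The 2 members called lower were CM085E04, at -0.95, -0.61 and -0.50, a mean of -0.69 ± 0.23 (SD, n = 3; adjusted p = 4.05e-05), and CM035G02, at -0.40, -0.49 and -0.74, a mean of -0.54 ± 0.18 (SD, n = 3; adjusted p = 5.06e-05). With the deposited sign the means are -1.63 for CM003E03, -1.38 for CM001A08, 0.69 for CM085E04 and 0.54 for CM035G02. Of the other clones highest at -3, CM114H10 was higher in fl at +3 at 0.85 ± 0.09 (SD, n = 3; adjusted p = 8.02e-06) and CM017C02 at 0.90 ± 0.11 (SD, n = 3; adjusted p = 1.33e-05). CM027H12 averaged 0.62 ± 0.49 (SD, n = 2) and was not called (limma adjusted p = 0.0977). These means are, with the deposited sign, -0.85 for CM114H10, -0.90 for CM017C02 and -0.62 for CM027H12. At +10 the fl difference was 0.16 ± 0.05 for CM114H10, 0.37 ± 0.33 for CM017C02 and 0.13 ± 0.16 for CM027H12 (SD, n = 3 each), of which CM017C02 was called (adjusted p = 0.0178).

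**Figure D4:**
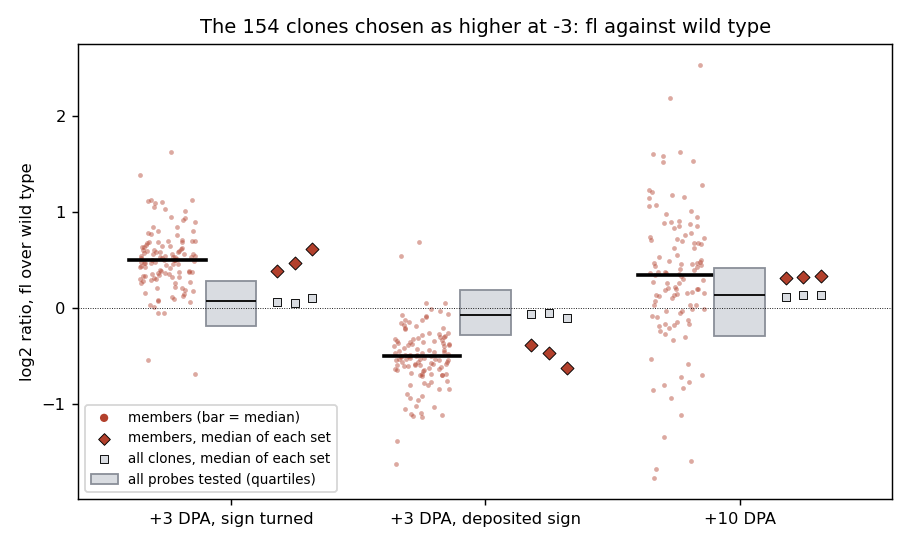
Log2 ratio of fl over wild type for each member (points, mean over sets; bar, median) at +3 days with the sign turned, at +3 with the deposited sign, and at +10, beside the quartiles of all probes tested (box) and the medians of each set (diamonds, members; squares, all clones). The members' median is 0.50 at +3 with the sign turned, -0.50 with the deposited sign and 0.34 at +10, against 0.07, -0.07 and 0.14 over all probes.

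The genotype difference changed between the 2 ages for some members. With the sign turned at +3, the fl difference at +10 minus that at +3 was higher for 16 and lower for 37 of 100 members tested (16.0% and 37.0%), against 23.6% and 21.4% of all 8833 probes, with a median of -0.20 over members and 0.04 over all probes. With the deposited sign 77 were higher and 4 lower, against 40.8% and 24.7% of all probes. Leaving out set 1 of every comparison, with the sign turned, gave 7 higher and 20 lower, against 12.5% and 12.6% of all probes. Leaving out set 2 gave 10 higher, against 17.6%. With the sign turned, 7 of 35 members on plates from 80 up were higher and 6 lower, where 36.0% of all clones there were higher and 8.7% lower. On the other plates 9 of 65 were higher and 31 lower, where 17.3% of all clones were higher and 27.8% lower. Under the deposited sign, 29 and 2 of the 35 were higher and lower, against 54.5% and 11.1% of all clones, and 48 and 2 of the 65, against 33.9% and 31.5%. Among the 77 clones also chosen without set 2 of -3, 9 of 52 tested (17.3%) were higher and 22 (42.3%) lower with the sign turned, and 40 higher and 1 lower with the deposited sign.

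The 72 clones that passed the -3 threshold but were left out by the other conditions had a median of 1.01 both at -3 and at 0. Their median was -0.43 at +5, -0.22 at +10, 0.09 at +15 and -0.08 at +20, where the 154 members had 0.14, 0.21, 0.73 and 0.25. They spread widely at +15, where 25 of 69 lay at least 0.8 above +3 and 26 at least 0.8 below it. Of the 64 tested at +20, 20 were higher than at +3 and 28 lower, against 33.5% and 35.8% of all probes. In fl at +3, with the sign turned, 56 of 66 were higher and 1 lower, against 25.2% and 19.1% of all probes, and their median was 0.86. The deposited sign gives 1 higher and 56 lower, against 19.0% and 25.3%, and the median was -0.86. In fl at +10, 29 of 48 were higher and 8 lower, against 39.8% and 26.4% of all probes, and their median was 0.53. The conditions at 0 and +15 separated these lists, so no test of their difference is given.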

How the data were processed

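The authors deposited 1 table of log2 ratios (unit judged from the values) with 11706 rows and 51 arrays, of which they had normalized 41, as the values show, in a way the labels do not state. Array medians over clones ran from -0.15 to 0.11 on these and from -0.52 to 0.47 on the other 10. Precision is limited by how many arrays there are, and brightness per spot was not used here. Exact zeros were taken as missing. Groups, dyes and set numbers came from the labels. A set mean was the mean of an array and its dye swap. All 8 comparisons were fitted in 1 group-means model with limma 3.58.1 in R 4.3.3 (lmFit, eBayes, prior df 6.12, prior SD 0.184), with Benjamini-Hochberg adjustment over all probes tested, and the fit was tested on simulated data. Whether set numbers pair the samples is not settled. Deviations of sets from their comparison means correlated at -0.25 to 0.34 over 45 pairs of equal set number. For 90 pairs of different set number this was -0.31 to 0.29. Comparisons of +5 and +10 with +3, with 2 sets each, were not included. Set number was not in the main fit. The members, lists and tests were chosen with earlier results of these data known. Named clones are the 4 highest at -3, the 2 on each side of the -0.8 threshold, the 2 largest called changes each way in each tested comparison with 1 sign in all sets, and the 3 with the largest and smallest SD over +5, +10 and +20. Alternatives were array centring and scaling, separate fits, the shared array kept, a replicate block, the deposited sign at +3, each set left out, and stricter rules. No clone sequence or gene name was used here.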

Additional observations from a re-analysis of the deposited data

Results flagged for a closer look

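The fl difference changed between +3 and +10 in limma's contrast of the 2 comparisons, with 16 members higher and 37 lower at +10 (of 100 tested) when the sign at +3 was turned, against 23.6% and 21.4% of all probes. With the deposited sign 77 were higher and 4 lower, against 40.8% and 24.7%.

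Among the named clones, the change was 2.51 ± 0.16 (SE; limma adjusted p = 8.56e-10) for CM117D03 and 1.01 ± 0.12 (SE; adjusted p = 2.95e-06) for CM035G02. It was -3.40 ± 0.59 (SE; adjusted p = 0.000191) for CM003E03, -2.19 ± 0.20 (SE; adjusted p = 1.12e-07) for CM001A08 and -2.04 ± 0.16 (SE; adjusted p = 9.71e-09) for CM009H07. With the deposited sign at +3 it was 2.56 for CM117D03 and -1.31 for CM009H07, both still called, and 0.58 for CM001A08 (adjusted p = 0.0157). CM003E03 at -0.15 (limma adjusted p = 0.842) and CM035G02 at -0.08 (adjusted p = 0.595) were then not called. All of these clones were named as extremes of fl against wild type at +3 or at +10, so the picking favoured large changes.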

How the results depend on the processing

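Of 156 counts recomputed under alternatives, 109 stayed within 1.5 times the reported count. The 156 include counts from the unchanged fit for the 137 members also chosen after centring and the 77 also chosen without set 2. The length of these shorter lists bears on their counts, so the tally does not measure the processing alone. Of 152 values of named clones, 148 kept their direction and their call. These clones were picked as called with 1 sign in every complete set, so leaving out a set could not turn their direction. The exceptions among the 152 were the 4 clones at +3 under the deposited sign. They read -1.63 (CM003E03), -1.38 (CM001A08), 0.69 (CM085E04) and 0.54 (CM035G02). That sign gave 2 members higher and 86 lower in fl at +3, and 77 higher and 4 lower for the fl difference at +10 minus +3. Centring gave 24 members lower in fl at +10 and 8 lower at +10 than at +5, against 33.8% and 3.92% of all probes. Centring with scaling gave 23 and 5 for these, against 32.8% and 1.91%. It gave 11 higher and 4 lower at +20 than at +10, against 6.36% and 9.49%, and 8 higher for the fl change, against 21.3%. With the shared array kept, 5 of 117 were lower at +10 than at +5, against 1.97%. In that fit 28 of 120 were higher at +20 than at +10, against 14.5%. The rule gave 91 clones with 3 complete sets and 69 at a threshold of -1.0.

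Chosen after seeing the data, the 77 clones also selected without set 2 are given here, higher and lower, against all probes. At +5 they gave 23 and 10 of 53 tested, against 26.8% and 29.2%. At +10 they gave 26 and 13 of 58, against 28.8% and 30.2%, and at +20 31 and 13 of 61, against 33.5% and 35.8%. In fl they gave 29 and 7 of 60 at +10, against 39.8% and 26.4%. With the sign turned they gave 45 and 1 of 55 in fl at +3, against 25.2% and 19.1%. At +20 over +10 they gave 7 and 5 of 55, against 10.5% and 12.2%. The fl change, with the sign turned, gave 9 and 22 of 52, against 23.6% and 21.4%. At +10 over +5 limma called 0 of 50 tested lower (5 at an unadjusted p under 0.05) and 6 higher, against 2.00% and 4.10%.

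Leaving out 1 set at a time, with a lone set assumed to vary like the other groups, gave ranges of 27 to 45 higher and 13 to 23 lower at +5, 36 to 49 and 17 to 34 at +10, 57 to 59 and 29 to 33 at +20, 50 to 57 and 12 to 15 in fl at +10, and 69 to 81 and 2 to 2 in fl at +3. Of all probes, 29.4% to 31.1% were higher and 30.8% to 32.6% lower at +20 in these fits. In fl at +10 these shares were 30.7% to 34.5% and 22.8% to 24.8%. In fl at +3, with the sign turned, they were 15.1% to 19.8% and 14.7% to 16.4%. The fl change gave 7 to 13 and 20 to 31, against 12.5% to 18.7% and 12.6% to 17.4%. Comparisons of +5 and +10 with +3 kept 1 set in some of these fits, so medians are given for them. Where 1 set was left there, fewer of all probes were called than in the main fit. The ranges of counts at +5 and +10 therefore do not measure the members alone. The members' median was 0.03 to 0.21 at +5, against -0.05 to -0.03 over all probes. At +10 it was 0.15 to 0.24, against -0.03 to -0.01. It was -0.07 to -0.01 at +10 over +5, against -0.02 to -0.01, and 0.07 to 0.08 at +20 over +10, against -0.01 to 0.0. The rule with 1 set left out, also recomputed after seeing the data, gave 86 to 278 clones. The set number as a replicate block gave 59 higher and 14 lower in fl at +10, against 39.6% and 26.1% of all probes. It moved no count by more than 1.5 times. Brightness was not used, so dim spots could not be set apart.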
